A study of Mus musculus with 2 samples.

Results

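The nuclear genes of oxidative phosphorylation were examined in RNA sequencing of sorted cells, labelled as tumor cells, from mice given vehicle or clodronate. The members were all genes whose symbol begins with Nduf, Sdha, Sdhb, Sdhc, Sdhd, Sdhaf, Uqcr or Atp5, or with Cox followed by a digit from 4 to 8, which gave 94 of the 22886 genes in the deposited tables. They hold the subunits of the 4 respiratory complexes and of ATP synthase that are encoded in the nucleus, together with some assembly factors. The series holds 2 libraries of polyA RNA, with 1 library per condition. Both came from cells labelled as aerobic tumor cells, sorted from subcutaneous tumors of Lewis lung carcinoma (LLC), a transplanted mouse lung tumor line, in wild type C57BL/6 mice. The vehicle library came from mice with a vehicle injection. The clodronate library came from mice with a clodronate injection, a drug that kills phagocytes when it is given in liposomes. The labels do not state the dose, the carrier, the time of the injection, the age of the mice or whether animals were pooled. The growth protocol in the labels speaks of EML cells, a line of blood progenitors, although every other label speaks of the tumor.

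The labelled cell type was checked against marker genes. All 11 macrophage markers found were highly expressed in both libraries, and Lyz2, a lysozyme of macrophages and neutrophils, stood at 10534 RPKM (reads scaled to transcript length and library size) in the vehicle library and 11189 RPKM in the clodronate library. Of 8 epithelial markers, 4 were listed at 0 throughout, and no marker rose above the 6.44 RPKM of Cdh1 in the clodronate library. Markers of T and NK cells, neutrophils, endothelial cells and blood progenitors were low, with summed levels between 3.34 RPKM (endothelial cells, vehicle) and 45.1 RPKM (neutrophils, clodronate). The macrophage markers summed to 26483 and 25280 RPKM in the vehicle and the clodronate library, and the epithelial markers to 14.98 and 10.97 RPKM. The markers thus go against a label of tumor cells alone, with macrophage genes dominant in both libraries, and the samples are called sorted cells below. Sums of RPKM do not give shares of cells, and no marker of the LLC line itself was checked. The summed level of 8 fibroblast markers was 157 RPKM in the vehicle library and 75.7 RPKM in the clodronate library, and 11 of 15 proliferation genes were at least 1.5-fold higher in the clodronate library, where the median of their log2 ratios was 1.12. The part of these shifts in the values below was not tested. The files give no read totals, but most low values rise in steps of whole reads, from which about 13700000 reads were estimated for the vehicle library and 11200000 for the clodronate library.

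Oxidative phosphorylation takes place in the inner mitochondrial membrane. Complexes I and II pass electrons from NADH and succinate to ubiquinone, complex III passes them to cytochrome c, and complex IV passes them to oxygen. Complexes I, III and IV pump protons as they do so, and ATP synthase lets the protons flow back to drive the synthesis of ATP. A few core subunits are encoded by mitochondrial DNA, and all others by nuclear genes, many of which carry promoter sites of the transcription factors NRF1, GABP (a factor of the ETS family) and YY1. In macrophages, the balance of oxidative phosphorylation and glycolysis is known to differ between states of activation.

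Promoter sequences are given for the 3 genes that encode the same c subunit of ATP synthase, for Ndufb2, which with Atp5g3 had the lowest ratios among members above 10 RPKM, and for Cox6a1, whose promoter holds several of the motifs searched. They are from RefSeq on the GRCm38.p6 build, run 5′ to 3′ on the strand of the gene and cover the 250 bases before the start site. Capitals mark NRF1 motifs (GCGCA and GCGC with any 1 base between them) and the ETS motif (CCGGAAG), each searched on both strands, as was the YY1 motif (AAGATGGCG).
Atp5g3, chr2:73911327-73911576, minus strand: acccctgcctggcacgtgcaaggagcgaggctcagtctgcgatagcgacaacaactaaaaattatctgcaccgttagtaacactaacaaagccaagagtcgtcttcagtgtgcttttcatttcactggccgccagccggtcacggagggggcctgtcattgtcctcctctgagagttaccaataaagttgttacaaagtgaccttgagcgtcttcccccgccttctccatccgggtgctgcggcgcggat
Atp5g2, chr15:102671048-102671297, minus strand: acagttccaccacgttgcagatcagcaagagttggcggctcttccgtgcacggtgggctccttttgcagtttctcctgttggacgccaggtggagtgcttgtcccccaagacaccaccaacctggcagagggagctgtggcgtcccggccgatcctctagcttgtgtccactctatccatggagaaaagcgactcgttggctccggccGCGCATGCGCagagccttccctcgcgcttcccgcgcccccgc
Atp5g1, chr11:96075632-96075881, minus strand: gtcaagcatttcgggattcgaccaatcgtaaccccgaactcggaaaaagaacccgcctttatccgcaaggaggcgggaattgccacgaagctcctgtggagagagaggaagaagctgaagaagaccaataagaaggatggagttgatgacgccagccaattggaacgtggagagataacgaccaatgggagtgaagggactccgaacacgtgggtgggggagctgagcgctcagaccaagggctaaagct
Ndufb2, chr6:39592315-39592564, plus strand: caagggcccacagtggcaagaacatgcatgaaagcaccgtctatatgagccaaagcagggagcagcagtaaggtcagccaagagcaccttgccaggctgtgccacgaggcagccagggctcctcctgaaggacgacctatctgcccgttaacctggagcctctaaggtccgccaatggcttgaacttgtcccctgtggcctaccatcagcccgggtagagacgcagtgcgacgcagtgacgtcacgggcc
Cox6a1, chr5:115348959-115349208, minus strand: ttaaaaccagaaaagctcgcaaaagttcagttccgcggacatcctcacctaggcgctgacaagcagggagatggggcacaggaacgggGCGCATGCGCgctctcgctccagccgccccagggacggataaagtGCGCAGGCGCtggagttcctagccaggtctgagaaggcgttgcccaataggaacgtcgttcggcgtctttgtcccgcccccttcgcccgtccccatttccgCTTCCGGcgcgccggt
The promoter of Cox6a1 holds 2 NRF1 motifs, whose first bases lie at positions -162 and -117 from the start site, and 1 ETS motif at -16, read on the opposite strand. The promoter of Atp5g2 holds 1 NRF1 motif at -42. The stretches shown for Atp5g3, Atp5g1 and Ndufb2 hold none of these letters, and the NRF1 match of Atp5g3 lies in the 50 bases after its start site, which were searched but are not shown.

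Across a window of 300 bases, from 250 before to 50 after the start site, 78 of the 94 members could be matched to a RefSeq promoter. An NRF1 motif was present in 18 of them (23.1%), against 6.60% of all 17492 promoters. The ETS motif was also present in 18 members (23.1%), against 11.9% of all promoters. The YY1 motif was present in 7 members (8.97%), namely Atp5j2, Atp5sl, Ndufa9, Ndufc1, Ndufs4, Ndufs6 and Ndufs7, against 1.94% of all promoters. Any of the 3 motifs was present in 38 members (48.7%), against 18.6% of all promoters. These are matches of letters and not measured binding sites. All 17492 promoters are those of protein-coding genes, whether or not they were expressed here. The shares were not compared with those of expressed genes alone.

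The members were among the abundant transcripts of both libraries. Their RPKM summed to 14180 in the vehicle library and 11424 in the clodronate library, which was 2.36% and 1.92% of the sum over all genes. In both libraries, 75 members were at 10 RPKM or more, and 45 members lay in the top 10% of the 10982 genes whose mean reached 1 RPKM. The highest value in both libraries belonged to Atp5k, the e subunit of ATP synthase that helps to hold its dimers together, with 1204 RPKM in the vehicle library and 1033 RPKM in the clodronate library. It was followed in the vehicle library by Atp5g3 with 936 RPKM and in the clodronate library by Cox6b1 with 570 RPKM. This order depends on how length enters the RPKM. The values behave as reads divided by the transcript length less 200 bases, which raises short transcripts. Divided by the full length, Atp5g3 was the highest member of the vehicle library at 675 against 558 for Atp5k, and Atp5k was still the highest in the clodronate library at 479.

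**Figure D1:**
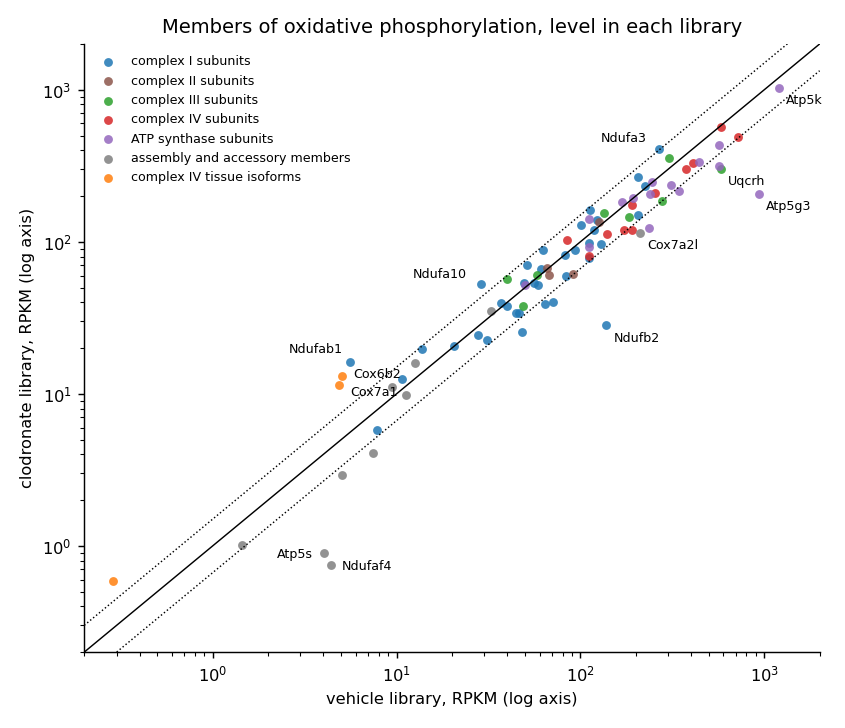
RPKM of each member in the vehicle library (horizontal, log axis) and in the clodronate library (vertical, log axis), colored by complex, with the solid line at equal values and dotted lines at 1.5-fold; members listed at 0 in either library are not drawn. Most points lie between the dotted lines, while Atp5g3 (936 and 206 RPKM) and Ndufb2 (138 and 28.2 RPKM) lie far below them.

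The comparison of the clodronate library with the vehicle library asks how the injection changed expression in the sorted cells. Log2 ratios were taken between the clodronate and the vehicle value after 1 RPKM was added to each, so that differences of low genes come out too small. As each condition had 1 library, differences cannot be set against a spread between replicates, and no test was made. In bulk RNA, fewer cells of a type and less RNA per cell cannot be told apart. Of the 94 members, 88 had a mean of at least 1 RPKM. Of these 88, 7 were at least 1.5-fold higher in the clodronate library, where 16.6% of all 10982 genes were, and 15 were at least 1.5-fold lower, where 16.3% of all genes were. The lower share of the members (17.0%) was near the background, and their higher share (7.95%) was below it. These shares are not matched for level. For other genes, the middle 50% of log2 ratios spanned 1.01 at 1 to 10 RPKM and 0.66 at 10 to 50 RPKM. At a mean of at least 10 RPKM, 3 of 78 members were higher, against 12.0% of all genes, and 11 were lower, against 11.7%. A ratio below 1 was found for 52 of the 88 members (59.1%), against 48.4% of all genes. The median log2 ratio of the members was -0.17, and that of all genes was 0.019. At 2-fold, 5 members were higher (6.95% of all genes) and 4 lower (6.77%), and at 3-fold, 2 were higher (2.86%) and 3 lower (2.32%). The 2 higher at 3-fold were Ndufaf1 and Cox6a2, which were listed at 0 with vehicle and passed the filter through the clodronate library alone. Both stand in each of these counts of higher members except that at a mean of at least 10 RPKM. Thus 66 of the 88 members differed by less than 1.5-fold, as did 7365 of all 10982 genes, and the members had a small tilt to lower values.

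The tilt was set beside transcript length. The members' transcripts are short, with a median length of 823.5 nt against 2801 nt for all genes that passed the filter. Among genes that are no member, the median log2 ratio was -0.14 under 600 nt, -0.22 at 600 to 800 nt, -0.17 at 800 to 1200 nt, -0.027 at 1200 to 2000 nt and 0.044 at 2000 to 4000 nt. In the same classes the members had -0.35 (24 genes), -0.066 (17 genes), -0.33 (18 genes), -0.11 (18 genes) and 0.11 (11 genes). Short classes were thus lower than the longest for both, but the members did not fall evenly with length. With ratios corrected for transcript length and GC content, the median of the members was -0.0047, with 10 members higher and 10 lower, where 15.0% of all genes were called in each direction. Whether length is the source of the tilt was not tested.

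**Figure D2:**
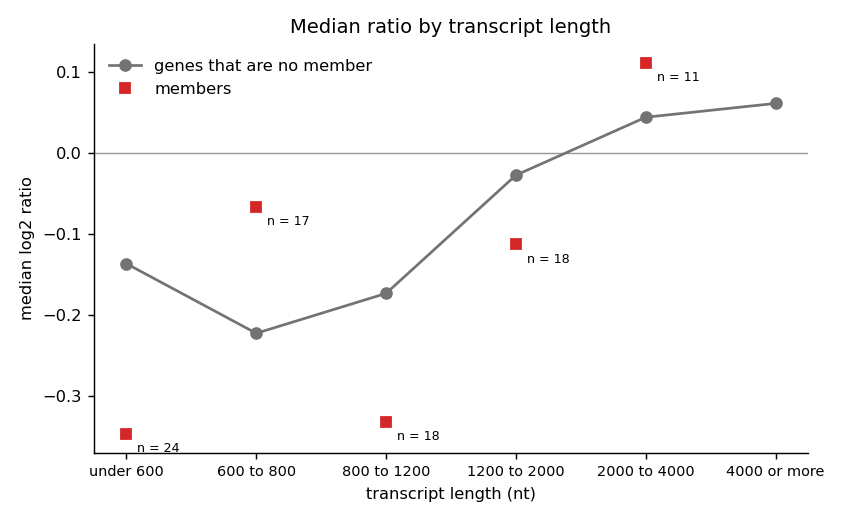
Median log2 ratio of clodronate over vehicle (vertical) by class of transcript length in nt (horizontal), with circles for genes that are no member and squares for members, and the number of members beside each square. Members lie at -0.35 and other genes at -0.14 under 600 nt, against 0.11 and 0.044 at 2000 to 4000 nt, and the members at 600 to 800 nt, at -0.066, stand above their neighbors.

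**Figure D3:**
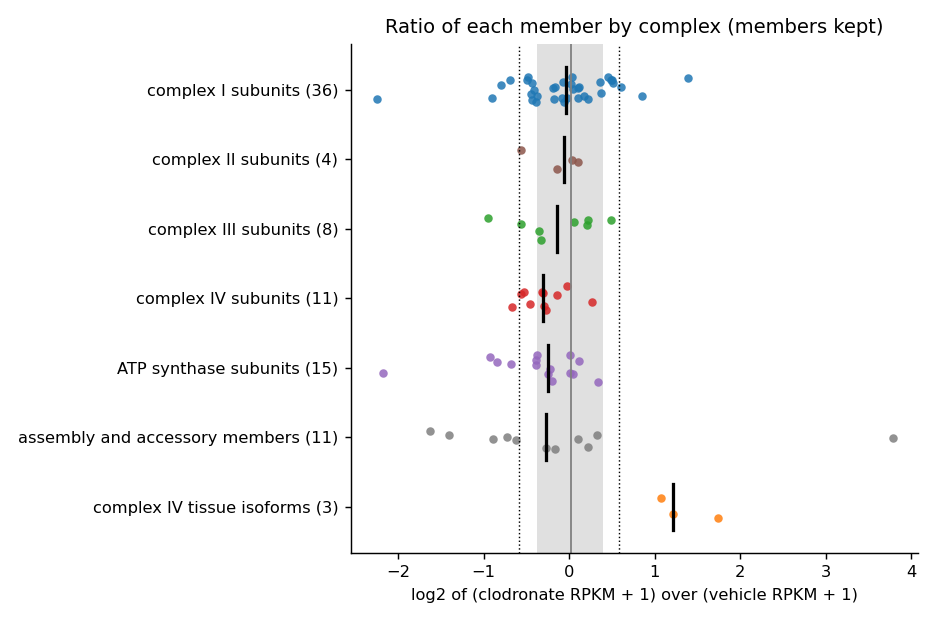
Log2 ratio of clodronate to vehicle, each with 1 RPKM added (horizontal), for each member with a mean of at least 1 RPKM, in rows by complex with the number of members; black bars are medians, dotted lines mark 1.5-fold, and the grey line and band give the median and the middle 50% of all genes. In complex IV, 10 of 11 subunits lie below 0, against 48.4% of all genes, while complex I spreads to both sides with a median of -0.043.

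Complex I takes electrons from NADH and is the largest of the respiratory complexes. Its 36 subunits among the members had nearly the same summed level in both libraries, 2943.14 RPKM with vehicle and 2943.61 RPKM with clodronate, with 3 subunits higher (16.6% of all genes were), 4 lower (16.3% of all genes) and a median log2 ratio of -0.043. The equal sum hides differences in both directions between single subunits. Ndufv1, which binds NADH and the flavin, stood at 20.5 RPKM in the vehicle library and 20.7 RPKM in the clodronate library. Ndufs1, the largest iron-sulfur subunit, stood at 10.7 and 12.5 RPKM. Both core subunits therefore differed little. Of the 7 nuclear core subunits, Ndufv2 and Ndufs3 were lower. Ndufv2, an iron-sulfur subunit beside Ndufv1, stood at 48.2 RPKM with vehicle and 25.4 RPKM with clodronate (log2 ratio -0.90). Ndufs3 stood at 64.2 and 39.2 RPKM (log2 ratio -0.70), and 39.7% of the 50-base words of its transcript occur in other genes, so that its reads could be assigned differently. Both fell short of 1.5-fold after the correction for length and GC content, at -0.56 and -0.48. The core subunit Ndufs7, which carries the last iron-sulfur cluster before ubiquinone, stood at 62.8 and 88.1 RPKM (log2 ratio 0.48), and Ndufs8 at 118 and 120 RPKM.

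The 29 accessory subunits of complex I surround the core and are needed for its assembly or stability. Of these, 3 were higher (10.3%, against 16.6% of all genes) and 2 lower (6.90%, against 16.3%). Ndufb2 had the lowest ratio of the members above a mean of 10 RPKM, with 138 RPKM in the vehicle library and 28.2 RPKM in the clodronate library (log2 ratio -2.25). This rests on about 487 and 81 estimated reads, and 33.5% of its 50-base words occur in other genes. Its locus in the files is chr6:39542581-39549470 on the mm9 build. Ndufa1 stood at 70.9 and 40.2 RPKM (log2 ratio -0.80), on about 214 and 99 estimated reads, and at -0.47 after the length and GC correction. The subunits that were higher were Ndufab1, Ndufa10 and Ndufa3. Ndufab1, which is also the acyl carrier protein of mitochondrial fatty acid synthesis, stood at 5.59 and 16.2 RPKM (log2 ratio 1.39). Ndufa10 stood at 28.9 and 53.1 RPKM (log2 ratio 0.85). Ndufa3, the highest subunit of complex I in both libraries, stood at 266 and 405 RPKM (log2 ratio 0.60), just past the threshold of 1.5-fold, and at 0.58 with ratios centred on all genes and 0.54 with scaling to the same upper quartile, which are short of it. Just inside it were Ndufa7 with 113 and 161 RPKM (log2 ratio 0.51), Ndufa11 with 13.7 and 19.7 RPKM (0.49) and Ndufb3 with 51.4 and 70.6 RPKM (0.45). After the length and GC correction Ndufa7 (0.67), Ndufb3 (0.81) and Ndufa2 (0.62, from 206 and 266 RPKM) passed it. The lowest subunit of complex I was Ndufab1 in the vehicle library and Ndufs5, at 7.83 and 5.81 RPKM, in the clodronate library. The subunits of this complex thus spanned a wide range of levels within each library.

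Complex II is succinate dehydrogenase, an enzyme shared with the citric acid cycle and the only one of these complexes encoded wholly in the nucleus. None of its 4 subunits differed by 1.5-fold in the values as deposited. Sdha, the flavin subunit that oxidizes succinate, stood at 91.3 RPKM with vehicle and 61.6 RPKM with clodronate (log2 ratio -0.56), and passed 1.5-fold at -0.60 after the length and GC correction and at -0.62 with scaling to the same upper quartile. Sdhb, the iron-sulfur subunit, stood at 126 and 136 RPKM. The membrane anchors Sdhc and Sdhd stood at 66.0 and 67.3 RPKM and at 67.1 and 60.8 RPKM. Sdha was therefore the subunit that differed most, and the others lay close together in both libraries. The assembly factors of complex II, Sdhaf1 and Sdhaf2, stood at 32.7 and 35.3 RPKM and at 12.6 and 16.0 RPKM.

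Complex III, the cytochrome bc1 complex, was represented by 8 subunits. Of these, 4 had a ratio below 1 (50%, against 48.4% of all genes) and 1 was at least 1.5-fold lower (12.5%, against 16.3%). The lower subunit was Uqcrh, the hinge protein that joins cytochrome c1 to cytochrome c, with 581 RPKM in the vehicle library and 301 RPKM in the clodronate library (log2 ratio -0.95). It accounted for most of the difference in the summed level of the complex, 1628 against 1299 RPKM. Uqcrb stood at 277 and 187 RPKM (log2 ratio -0.57), with 43.4% of its words shared with other genes. Uqcrc1, a core protein, went the other way with 40.1 and 56.8 RPKM (log2 ratio 0.49), while Uqcrc2, the other core protein, stood at 48.5 and 37.9 RPKM (-0.35). Uqcrfs1, the Rieske iron-sulfur protein that takes electrons from ubiquinol, was close to equal at 58.1 and 60.2 RPKM.

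Complex IV, cytochrome c oxidase, was lower across most of its subunits by small amounts. Its 11 subunits here include Ndufa4, with 140 and 113 RPKM (log2 ratio -0.30), which was not counted in complex I. Of these 11, 10 had a ratio below 1, against 48.4% of all genes. The median log2 ratio was -0.31, and the summed level was 3229 RPKM with vehicle and 2607 RPKM with clodronate. Genes of cytosolic ribosomal proteins shared this direction, with 71 of 85 below 1 and a median of -0.29. Only Cox6c of complex IV passed 1.5-fold, where 16.3% of all genes were that much lower. Cox6c stood at 191 and 120 RPKM (log2 ratio -0.67, and -0.40 after the length and GC correction). Cox6a1 was the highest of the 11 subunits in the vehicle library at 720 RPKM and stood at 487 RPKM in the clodronate library (log2 ratio -0.56). Cox4i1, the largest nuclear subunit and a site of regulation by ATP, stood at 409 and 329 RPKM, and Cox8a at 377 and 302 RPKM. Cox6b1, which faces cytochrome c, was close to equal at 581 and 570 RPKM. Cox5a was the exception above 0, with 84.9 and 103 RPKM (log2 ratio 0.27). After the correction for length and GC content, the median of the complex was 0.0051, so the common direction of its subunits was not seen under that correction.

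ATP synthase had the largest difference in summed level, 5717 RPKM with vehicle and 4012 RPKM with clodronate, and Atp5g3 alone made up much of it. Of its 15 subunits, 4 were lower (16.3% of all genes were) and none was higher (16.6%). Without Atp5g3 the sums were 4781 and 3805 RPKM. The catalytic F1 subunits were close to equal. Atp5b, the β subunit that forms ATP, stood at 245 RPKM in both libraries, and Atp5a1, the α subunit, at 169 and 183 RPKM. The small F1 subunits of the central stalk were lower, with Atp5d (δ) at 345 and 215 RPKM (log2 ratio -0.68) and Atp5e (ε) at 564 and 314 RPKM (log2 ratio -0.84). Atp5j, subunit F6 of the peripheral stalk, stood at 236 and 124 RPKM (log2 ratio -0.92), and its locus in the files is shared with Gabpa, a neighboring gene. Atp5l, subunit g, stood at 440 and 335 RPKM, with 84.8% of its words in other genes.

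The c subunit forms the ring that turns as protons pass, and its 3 genes encode 1 mature protein behind different import peptides. Atp5g3 stood at 936 RPKM in the vehicle library and 206 RPKM in the clodronate library, a log2 ratio of -2.18 on about 6625 and 1186 estimated reads. None of its 50-base words occurs in another gene. Its locus in the files is chr2:73746506-73749351 on the mm9 build. Atp5g2 stood at 566 and 435 RPKM, with 87.4% of its words in other genes, and Atp5g1 at 112 and 141 RPKM. The summed level of the 3 genes was 1614 RPKM with vehicle and 782 RPKM with clodronate. The share of Atp5g3 in this sum was 58.0% with vehicle and 26.3% with clodronate, while that of Atp5g2 was 35.1% and 55.6% and that of Atp5g1 was 6.93% and 18.0%. Hence the most abundant c-subunit gene was Atp5g3 in the vehicle library and Atp5g2 in the clodronate library. The ratio of Atp5g3 was -1.93 after the correction for length and GC content.

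**Figure D4:**
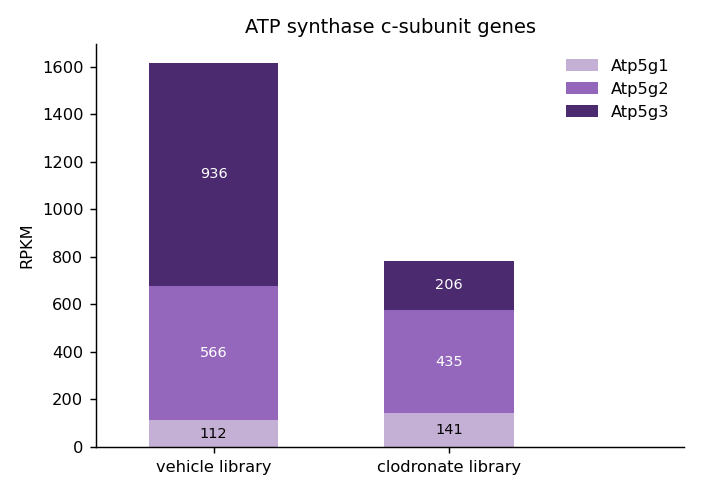
Stacked RPKM (vertical) of the c-subunit genes Atp5g1, Atp5g2 and Atp5g3 in each library, 1 library per bar and no error bars. The total is 1614 RPKM with vehicle and 782 RPKM with clodronate, and most of the difference is in Atp5g3, at 936 and 206 RPKM.

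Several subunits of complex IV have a second gene that is used in particular tissues, such as muscle, testis or lung. All of these were low here. Cox7b2, Cox8b and Cox8c were listed at 0 in both libraries. Cox6a2, the heart and muscle form of Cox6a1, was listed at 0 with vehicle and at 2.34 RPKM with clodronate, in a locus whose coordinates it shares with other genes. Cox4i2, the lung form of Cox4i1 that is induced by low oxygen, was at 1.94 RPKM with vehicle and listed at 0 with clodronate. Ndufa4l2, a paralog of Ndufa4 and a known target of HIF-1, was at 0.287 and 0.586 RPKM. Only Cox6b2, the testis form, and Cox7a1, the muscle form, were above 3 RPKM in both libraries. Cox6b2 stood at 5.07 and 13.1 RPKM on about 26 and 54 estimated reads, and Cox7a1 at 4.89 and 11.4 RPKM on about 13 and 25 estimated reads. They made up 0.865% and 2.25% of Cox6b RNA and 2.49% and 6.19% of Cox7a RNA in the vehicle and the clodronate library. The ubiquitous forms were thus nearly the whole of each pair in both libraries.

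The assembly and accessory members included the widest ratios at low levels. Of the 11 with a mean of at least 1 RPKM, 5 were lower (16.3% of all genes were) and 1 was higher (16.6%). After the length and GC correction Ndufaf6 (-0.35) and Ndufaf7 (-0.58) fell short of 1.5-fold. Ndufaf1, an assembly factor of complex I, was listed at 0 with vehicle and at 12.8 RPKM with clodronate, on about 178 estimated reads. It passed the filter through the clodronate library alone, as Cox6a2 did, and no fold is given. Ndufaf2 was listed at 0 with vehicle and at 1.68 RPKM with clodronate. In the opposite direction, Ndufaf4 stood at 4.40 and 0.752 RPKM (log2 ratio -1.62) and Atp5s, coupling factor B, at 4.02 and 0.902 RPKM (-1.40), on about 13 estimated reads in the clodronate library. Ndufaf7, an arginine methyltransferase needed for complex I assembly, stood at 7.46 and 4.11 RPKM, and Ndufaf6 at 5.05 and 2.94 RPKM. Of the complex I assembly factors among the members with values above 0 in both libraries, only Ndufaf3 had a ratio above 1. It stood at 9.41 and 11.1 RPKM (log2 ratio 0.22), while Ndufaf4, Ndufaf5, Ndufaf6 and Ndufaf7 had ratios below 1. Cox7a2l was the one abundant gene of the assembly and accessory members, with 212 and 114 RPKM (log2 ratio -0.89).

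Members with a given promoter motif lay on both sides of 0. The median log2 ratio was -0.24 for the 18 members with an NRF1 motif, which ranged from -2.18 (Atp5g3) to 0.49 (Uqcrc1 and Ndufa11), and -0.071 for the 57 without. It was -0.083 for the 18 with the ETS motif and -0.18 for those without. It was -0.39 for the 7 with the YY1 motif and -0.14 for those without. The factors themselves were expressed at low to moderate levels. Nrf1 stood at 6.97 RPKM with vehicle and 12.4 RPKM with clodronate, Gabpa at 10.3 and 8.68 RPKM, and Yy1 at 24.6 and 23.7 RPKM.

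Other genes of the pathway gave mixed values, to be read against 16.6% of all genes higher and 16.3% lower. Of 13 regulators of mitochondrial gene expression with a mean of at least 1 RPKM, 2 were higher, Nrf1 and Myc (22.7 and 44.7 RPKM), and 1 was lower, Tfb2m (12.9 and 7.56 RPKM), a factor that starts transcription of mitochondrial DNA. Ppargc1a, a coactivator of mitochondrial biogenesis, was listed at 0 in both libraries. Of 18 other assembly factors of complex IV, 6 were higher and 6 lower. Among them were Cox17, a copper chaperone, with 23.7 and 44.7 RPKM, and Cox20, a chaperone of the mitochondrially encoded subunit 2, with 68.2 and 23.6 RPKM. Of 7 other assembly factors of complex I, 1 was lower, Nubpl with 8.14 and 2.52 RPKM. Of 9 other genes of complex III and cytochrome c, 3 were lower and none higher. Cyc1, cytochrome c1, stood at 69.6 and 59.8 RPKM and Cycs, cytochrome c, at 26.7 and 18.8 RPKM. Of 6 other genes of ATP synthase, 1 was higher, Tmem70 with 4.04 and 7.63 RPKM, and Atpif1, the inhibitor of its reverse reaction, stood at 467 and 312 RPKM. Among the uncoupling proteins, Ucp2 stood at 306 and 347 RPKM, and Ucp1 and Ucp3 were listed at 0 in both libraries. The symbols of the mitochondrially encoded subunits were not found among the rows used here.

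The gene sets chosen as most similar, nuclear genes of ribosomal proteins, are set beside the members and against the same 16.6% higher and 16.3% lower of all genes. The sets differed in level. The median was 18.0 RPKM with vehicle and 18.1 RPKM with clodronate for mitochondrial ribosomal proteins, and 731 and 585 RPKM for cytosolic ones. The members had medians of 83.2 and 68.9 RPKM. Of 75 genes of mitochondrial ribosomal proteins, 11 were higher and 15 lower, with a median log2 ratio of -0.19. Of 85 genes of cytosolic ribosomal proteins, 1 was higher and 18 lower, with a median of -0.29. The median of the members, -0.17, was close to that of the mitochondrial ribosomal proteins.

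Many members share stretches of sequence with other genes or pseudogenes, which can share their reads. At least 10% of the 50-base words of the transcript occurred in another gene for 32 members, and none did for 45. Those at or over 10% include members given above without this limit, such as Sdhaf1 (69.0%), Uqcrc2 (24.8%), Cox7a2l (19.8%), Atp5j (16.3%) and Ndufab1 (12.3%). For 10 members, among them Uqcrc2, Atp5b, Ndufs1 and Ndufa2, the coordinates of the locus are also those of another gene. The 56 members under 10% with a mean of at least 1 RPKM had a median log2 ratio of -0.11, with 10 lower and 6 higher, again against 16.3% and 16.6% of all genes. The 32 members at or over 10% had a median of -0.29, with 5 lower and 1 higher. How the reads of these genes were assigned is not given in the sources used here.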

How the data were processed

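The authors deposited 1 table of RPKM per library, with a locus, accession and symbol for each of 23170 loci. The labels name the mm9 build and CASAVA 1.8.2, Bowtie 0.12.9, TopHat2 2.0.9, Cufflinks 2.2.1 and Cuffdiff, without their roles or settings, and the paper given for the series does not describe these libraries. For 26 loci with a number in place of a symbol, the accession was used. Rows of the same symbol were summed. Ratios were taken as log2(RPKM + 1), with genes of a mean of at least 1 RPKM kept and at least 1.5-fold counted as a difference. RPKM are not counts, so no count model was used, and the steps of 1 read gave whole reads (within 0.05) for only 65.4% and 65.1% of low loci. Estimated reads, lengths and shared 50-base words used GENCODE transcripts of a later build, matched by RefSeq accession, so they are approximate. Scripts (Python 3.11.15, pandas 2.3.3, numpy 2.4.6, matplotlib 3.10.9) were tested on simulated data. The members and gene lists were chosen with earlier results of these data known. Values in full were to be given for isoform pairs, catalytic or core subunits, the 10 highest members, the 8 highest and 8 lowest ratios above a mean of 10 RPKM, and members listed at 0. Other members were named after their values were seen. Alternatives changed the pseudocount, filter, scaling, fold and the use of length and GC content. The values of 1 core subunit are not reported here.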

Additional observations from a re-analysis of the deposited data

How the results depend on the processing

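No paired analysis was possible because there was only 1 library of each kind. None of the members past 1.5-fold changed direction under any alternative that was run. The count of members lower (15) became 4 at 2-fold, 3 at 3-fold and 9 with at least 100 estimated reads in both libraries. The count higher (7) became 3 at a mean of at least 10 RPKM, 2 at 3-fold and 3 with at least 100 estimated reads. Of all genes, 12.0% were higher and 11.7% lower at a mean of at least 10 RPKM, where 11 of 78 members were lower. The read filter kept 71 members, also left out those without a read estimate, and was not applied to the other genes. Among all genes, 6.95% were higher and 6.77% lower at 2-fold, and 2.86% and 2.32% at 3-fold. Scaling to the same upper quartile gave 19 lower and 6 higher, where 18.2% and 14.7% of all genes were, with a median of -0.037 over all genes. Scaling to the same sum without small RNA gave a median of 0.068 over all genes.

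With the correction for length and GC content, the median of all members was -0.0047. That of complex I was 0.083, complex III 0.036 and complex IV 0.0051, so that these complexes reversed. ATP synthase was at -0.068 and the tissue isoforms at 1.37. With the filter at a mean of 1 RPKM, the median of the tissue isoforms rests on 3 of 8 genes, Cox6a2, Cox6b2 and Cox7a1. Of these, Cox6a2 was listed at 0 with vehicle and passed the filter through the clodronate library alone. Cox4i2, which went the other way at 1.94 RPKM with vehicle and 0 with clodronate, fell just short of the filter. The median of complex I also reversed to 0.011 with the same sum without small RNA, and to 0.022 with members under 10% shared words, where complex III was at 0.050. The assembly and accessory members moved from -0.27 to -0.46 with a pseudocount of 0.1, and reversed to 0.11 at a mean of at least 5 or 10 RPKM or with at least 100 estimated reads. The tissue isoforms moved from 1.22 to 1.35 with a pseudocount of 0.1 and 1.08 with no filter, and ATP synthase from -0.25 to -0.38 with at least 100 estimated reads. In ATP synthase this read filter left out only Atp5c1 and Atp5g1, which had no read estimate, and no subunit for few reads. Except where a filter left fewer members, the cause was not tested. The alternatives on shared words and estimated reads were chosen after seeing the data. Without replicates, low members such as Cox6a2 and Cox7a1, on 25 estimated reads or fewer, are the least certain.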
